A study of Rattus norvegicus with 6 samples.

Results

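The accessible chromatin sites (ACS) assigned to 10 genes of the calcineurin and NFAT pathway were compared between islets of adult rats and of pups at postnatal day 10 (P10). The genes encode the NFAT factors *Nfatc2*, *Nfatc3*, *Nfatc4* and *Nfat5*, the calcineurin subunits *Ppp3ca*, *Ppp3cb* and *Ppp3r1*, the calcineurin regulators *Rcan1* and *Rcan2*, and the kinase *Dyrk1a*. Every ACS whose nearest listed gene was one of them was taken, which gave 99 of 101603 distinct ACS. The largest numbers belonged to *Ppp3ca* with 27 ACS, *Nfatc2* with 22, *Dyrk1a* with 15 and *Rcan2* with 14, while *Ppp3r1* had 5, *Nfatc4* and *Ppp3cb* 4 each, *Nfatc3* and *Rcan1* 3 each, and *Nfat5* 2.

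Accessibility was read by ATAC-seq, in which the Tn5 transposase inserts sequencing adapters into open DNA, and each value counts Tn5 integrations within an ACS. The series holds 3 Adult libraries, numbered 4, 5 and 6, each from 1 adult male Sprague-Dawley rat of about 3 months, and 3 P10 libraries, numbered 1, 2 and 3, made from mixes of a few pups, male and female, of 3 litters. The animals carried no treatment or engineered allele, and the cells were dissociated whole islets, not sorted. Adult islets were freed by collagenase injected into the pancreatic duct and P10 islets by shaking the pancreas in collagenase. Age, the sexes sampled and the digestion differed together between the groups and cannot be told apart. In whole islets, fewer cells of a type and less open chromatin per cell cannot be told apart either.

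In β-cells, calcium that enters during glucose stimulation binds calmodulin, which activates the phosphatase calcineurin. Calcineurin removes phosphates from NFAT factors, which then enter the nucleus and act on genes of β-cell growth and function. RCAN proteins bind and restrain calcineurin, and DYRK1A phosphorylates NFAT and returns it to the cytoplasm, so that inhibitors of DYRK1A are known to make β-cells divide. NFAT5 is the exception of the family, as it responds to osmotic stress and lacks the calcineurin docking region.

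Of the 10 genes, 6 had an entry in the RefSeq promoter table of the GRCr8 assembly, and the 250 bases before their starts were searched on both strands for the NFAT core GGAAAA, the cyclic AMP response element TGACGTCA and the AP-1 element TGACTCA. A match was found in the *Rcan1* promoter alone, which held each of the 3 words once, 225, 207 and 142 bases before the start and without overlap between them. Over 33469 promoters of the same length, GGAAAA was present in 21.6%, TGACGTCA in 1.59% and TGACTCA in 4.05%. The *Rcan1* sequence is shown with these words in capitals, and the promoters of *Ppp3ca* and *Rcan2*, the genes with the most strongly changed ACS, are shown beside it without a match. GC content was 54.0% at *Rcan1*, 68.0% at *Ppp3ca* and 69.2% at *Rcan2*. All are written 5′ to 3′ on the strand of the gene, and a match is a description of letters, not of binding.
Rcan1, GRCr8 chr11:45118237-45118486, minus strand: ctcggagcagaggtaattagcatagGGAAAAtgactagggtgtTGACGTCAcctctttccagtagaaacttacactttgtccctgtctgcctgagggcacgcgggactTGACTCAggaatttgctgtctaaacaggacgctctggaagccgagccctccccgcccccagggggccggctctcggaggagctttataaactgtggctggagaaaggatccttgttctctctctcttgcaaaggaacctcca
Ppp3ca, GRCr8 chr2:227839357-227839606, plus strand: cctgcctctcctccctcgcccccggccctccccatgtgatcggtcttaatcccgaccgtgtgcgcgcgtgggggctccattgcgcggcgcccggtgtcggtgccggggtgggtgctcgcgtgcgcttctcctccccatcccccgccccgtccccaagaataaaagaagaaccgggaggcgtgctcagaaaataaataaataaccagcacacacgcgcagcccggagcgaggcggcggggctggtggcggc
Rcan2, GRCr8 chr9:24672190-24672439, minus strand: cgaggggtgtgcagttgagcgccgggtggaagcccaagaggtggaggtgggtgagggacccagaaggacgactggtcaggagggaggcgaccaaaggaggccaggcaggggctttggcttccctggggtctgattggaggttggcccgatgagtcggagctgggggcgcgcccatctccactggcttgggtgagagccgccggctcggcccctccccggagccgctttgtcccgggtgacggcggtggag

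The *Rcan1* start printed here lies 10.1 kb from the far end of the gene in GRCr8, where the whole gene spans 79.9 kb. The annotation deposited with the ACS, in the Rn5 assembly, gives a gene of 10.3 kb. Short *Rcan1* transcripts from an internal promoter are known to be induced by calcineurin and NFAT themselves.

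Between 7916919 and 11903909 integrations fell in ACS in the Adult libraries, against 13491534 to 21168463 in the P10 libraries, without overlap. The total reads sequenced per library, as the paper lists them, did overlap between the ages. The 99 ACS took 0.0896 to 0.0971% of the integrations in ACS in each library, with ranges that overlapped. Values below are CPM, the integrations per 1000000 in ACS with library sizes scaled by TMM, and each difference is a log2 fold change of Adult over P10 with its standard error (SE) from the quasi-likelihood test of edgeR, adjusted over all 101603 ACS by Benjamini-Hochberg. An ACS was called Up, more open in adults, or Down, more open at P10, at p under 0.05 and an FDR under 0.2, the limits of the study. The age of each count column was taken from its name in the deposited table, which every direction here rests on and which no other measurement checked. Over all ACS the paper reports more Down than Up at these limits, whereas the columns read by name gave more Up than Down. The reason for this difference was not tested.

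Of the 99 ACS, 14 were called Up and 6 Down. The share of ACS called was 20.2%, near the 18.9% of all ACS, with 14.1% Up and 6.06% Down beside a background of 12.3% and 6.63%. Groups did not overlap at 24 of the 99, or 24.2%, beside 24.7% of all ACS. The median log2 fold change was -0.04, beside -0.01 over all ACS, and the values ran from -1.19 to 2.55. By these counts the genes together stood close to the background, and what follows concerns which ACS of which gene moved. Under an FDR of 0.05, 4 Up and 1 Down remained. With plain column sums in place of TMM, which shifts the median of all ACS to -0.10, the split was 13 Up and 9 Down. With the sequenced reads of each library as its size, which shifts that median to -0.84, it was 2 Up and 67 Down. The Up count fell to 7 without Adult 4 or without P10 3 and to 6 without P10 2, and the Down count fell to 3 without P10 2.

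**Figure D1:**
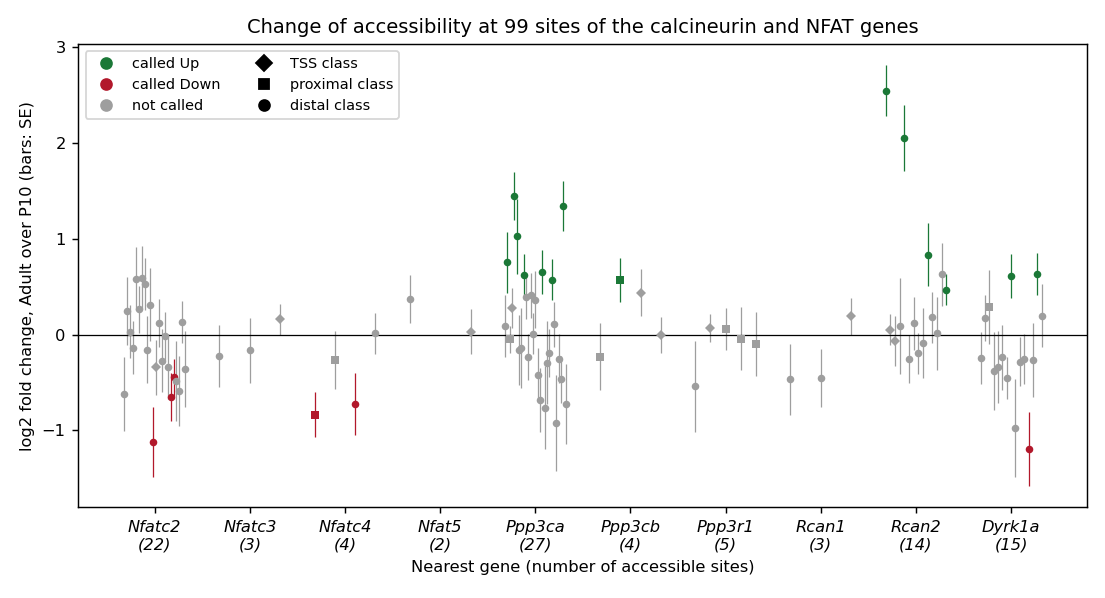
Log2 fold change of Adult over P10 for each of the 99 ACS, grouped by nearest gene on the horizontal axis, with bars of 1 SE and point shapes for the distance class. The coloured calls above 0 belong to the calcineurin genes, *Rcan2* and *Dyrk1a*, and those below 0 to *Nfatc2*, *Nfatc4* and *Dyrk1a*. The diamonds of the TSS class were not called and run from -0.34 to 0.44.

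The ACS at gene starts did not pass the test at any gene that had one of the TSS class, and *Nfatc4* and *Dyrk1a* had none. Of 10 ACS within 1 kb of a start (TSS class), 0 were called by edgeR, 0 had an unadjusted p under 0.05, and 0 were called by DESeq2 or limma voom, beside 10.6% of all TSS ACS called. Scaled to the sequenced reads, 8 of the 10 were Down. Their log2 fold changes ran from -0.34 to 0.44, and the 95% intervals reached from -0.93 to 0.94 at the widest. Of 9 proximal ACS, 1 to 10 kb from a start, 1 was Up and 1 Down, beside 17.9% of all proximal ACS called. Of 80 distal ACS, 13 were Up and 5 Down, or 22.5% beside a background of 20.2%.

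Among the NFAT genes, all 5 calls were Down and 0 of 31 ACS were Up, by edgeR, by DESeq2 and with column sums, while limma voom called 4 Down. The share called was 16.1%, beside 18.9% of all ACS. At an unadjusted p under 0.05 the counts were also 0 Up and 5 Down. Scaled to the sequenced reads, 24 were Down. The absence of Up calls rested on single libraries, since 2 Up and 3 Down were found without Adult 6, and 3 Up and 2 Down without P10 1. Without P10 2, 2 Down were called.

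*Nfatc4* showed the clearest change of the NFAT genes. An ACS 1845 bp upstream of its start (chr15:38379824-38380638, Rn5) held 8.04, 10.9 and 6.06 CPM in Adult libraries 4, 5 and 6, and 16.7, 13.8 and 14.4 CPM in P10 libraries 1, 2 and 3. Every adult value lay below every P10 value. The means were 8.34 ± 2.44 and 14.96 ± 1.53 CPM (SD, n = 3), the log2 fold change was -0.84 (SE 0.24, edgeR adjusted p = 0.0227), and the call was kept whichever library was left out. Another ACS, 25646 bp beyond the start and 16571 bp past the gene end, fell from 4.84 to 2.96 CPM (log2 fold change -0.72, SE 0.32, edgeR adjusted p = 0.18), a call lost without Adult 4, P10 1 or P10 2. The neighbouring ACS 26691 bp from the start had the highest mean count of the gene over the 6 libraries and differed little, with 13.3 CPM in adults and 13.2 CPM at P10.

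Summed over its 4 ACS, *Nfatc4* held 30.5, 28.9 and 26.6 CPM in the adults and 41.3, 36.7 and 35.8 CPM at P10. This was the largest relative difference in summed accessibility of the 10 genes, with means of 28.7 ± 2.01 and 38.0 ± 2.96 CPM (SD, n = 3), a log2 ratio of -0.40 and no overlap. *Nfatc4* has no ACS within 1 kb of its listed start. The gene spans 9.1 kb in the deposited annotation beside 27.6 kb in GRCr8, so inside and outside are as the deposited annotation has them. The genes whose summed log2 CPM followed *Nfatc4* most closely over the 6 libraries were *Dusp21* (Pearson r = 0.9974), *Ppapdc2* (r = 0.9908) and *Purb* (r = 0.9885), out of 7231 genes compared, 168 of which exceeded 0.9. The 6 libraries share the age difference and the gap in integrations within ACS, so these values describe likeness alone.

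*Nfatc2*, whose product is known to promote β-cell proliferation when active, had more ACS than the other NFAT genes, with 9 inside the gene, 11 upstream and 2 downstream. The gene spans 115.9 kb in the deposited annotation beside 132.3 kb in GRCr8, so these positions are as the deposited annotation has them. Of the 22 ACS, 3 were called Down and 0 Up, beside 6.63% and 12.3% of all ACS. The ACS 14327 bp upstream of the start (chr3:171514685-171514995, Rn5) held 2.08, 1.66 and 1.29 CPM in adults and 4.09, 4.64 and 2.43 CPM at P10, without overlap. Its means were 1.67 ± 0.40 and 3.72 ± 1.15 CPM, with a log2 fold change of -1.12 (SE 0.36, edgeR adjusted p = 0.0515), and the call was lost without P10 2. Inside the gene, the ACS 67546 bp from the start fell from 18.3 to 11.6 CPM (log2 fold change -0.65, SE 0.25, edgeR adjusted p = 0.114) and the ACS 71671 bp from the start from 26.7 to 19.5 CPM (-0.45, SE 0.20, edgeR adjusted p = 0.179).

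At both inner *Nfatc2* ACS the groups overlapped. The first held 16.4, 10.1 and 8.25 CPM in adults and 25.5, 14.7 and 14.8 CPM at P10, and was not called without Adult 5, Adult 6 or P10 1. The second was not called by limma voom or without Adult 5, Adult 6, P10 1 or P10 2. The ACS at the gene start was weak, with 5.43 ± 2.04 CPM in adults and 6.97 ± 1.48 CPM at P10 (log2 fold change -0.34, SE 0.29, edgeR adjusted p = 0.56). A run of upstream ACS 69828 to 94365 bp from the start had values above 0, with log2 fold changes from 0.26 to 0.59 at 4 ACS, of which 0 were called, and was singled out after its values were seen. Over chromosome 3, the median log2 fold change of 6104 ACS was -0.17, and its part in the *Nfatc2* calls was not tested.

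*Nfatc3* and *Nfat5* had 0 calls at 5 ACS, beside 18.9% of all ACS called, and *Nfat5* had 1 Up without P10 1. The ACS over the *Nfatc3* start held 40.4, 40.1 and 42.7 CPM in adults and 37.9, 36.7 and 35.6 CPM at P10, so that every adult value was higher, but the difference was small (log2 fold change 0.16, SE 0.16, edgeR adjusted p = 0.638). The ACS 876 bp inside *Nfat5* held 9.05 and 8.84 CPM, a log2 fold change of 0.03 (95% interval -0.45 to 0.51). The *Nfat5* ACS 22382 bp upstream held 9.90 and 7.67 CPM (0.37, SE 0.25, edgeR adjusted p = 0.438). Over chromosome 19, which holds both genes, the median log2 fold change of 2499 ACS was 0.18. Its part in the values of *Nfatc3* and *Nfat5* was not tested.

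Among the calcineurin genes, 8 of 36 ACS were Up and 0 Down, or 22.2% called beside 18.9% of all ACS. The Down count at an unadjusted p under 0.05 was 1, DESeq2 and limma voom also gave 8 Up and 0 Down, and column sums gave 7 Up and 2 Down. Scaled to the sequenced reads, it was 0 Up and 22 Down. Without Adult 4, 3 Up and 1 Down were found, without P10 2 4 Up, and without P10 3 5 Up. The gene of the catalytic subunit Aα, *Ppp3ca*, held 7 of the 8 calls and also 27 of the 36 ACS.

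The most opened *Ppp3ca* ACS lies 13609 bp inside the gene (chr2:260476883-260477327, Rn5). It held 15.8, 11.5 and 11.3 CPM in adults and 5.25, 3.92 and 4.97 CPM at P10. Every adult value stood above every P10 value, with means of 12.9 ± 2.54 and 4.72 ± 0.70 CPM (SD, n = 3) and a log2 fold change of 1.45 (SE 0.25, edgeR adjusted p = 2.67e-04).

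At the other end of the gene, an ACS 263125 bp inside and 8412 bp before the gene end (chr2:260726399-260726884) held 8.86, 11.4 and 11.6 CPM in adults and 5.16, 3.14 and 4.12 CPM at P10. Here too the groups were apart, with means of 10.6 ± 1.53 and 4.14 ± 1.01 CPM and a log2 fold change of 1.34 (SE 0.26, edgeR adjusted p = 0.00108). Both calls were kept whichever library was left out, but scaled to the sequenced reads the values were 0.61 and 0.47 on the log2 scale and not called.

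The other 5 *Ppp3ca* calls were smaller or rested on few integrations. The ACS 142457 bp inside rose from 7.88 to 12.4 CPM (log2 fold change 0.66, SE 0.23, edgeR adjusted p = 0.0723), and was lost without P10 3. The ACS 181104 bp inside rose from 9.49 to 14.1 CPM (0.57, SE 0.21, edgeR adjusted p = 0.0994), and was lost without Adult 4 or P10 2. The ACS 51338 bp inside rose from 14 to 21.5 CPM (0.62, SE 0.21, edgeR adjusted p = 0.0679) with groups that overlapped, and was lost without Adult 4 or P10 3. The ACS 28224 bp inside, at 2.36 and 1.14 CPM, and the ACS 13976 bp upstream, at 4.10 and 2.43 CPM, had log2 fold changes of 1.03 and 0.76 (edgeR adjusted p = 0.108 and 0.155). Each of these last 2 calls was lost without Adult 4, Adult 6, P10 1 or P10 2, and the upstream one also with column sums.

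The changed ACS of *Ppp3ca* lay between ones that did not pass the test. The log2 fold changes of its 20 uncalled ACS ran from -0.93 to 0.41. The ACS that overlaps the gene start, the most accessible of all 99, held 97.2 ± 2.78 CPM in adults and 100.5 ± 4.199 CPM at P10, a log2 fold change of -0.05 (SE 0.14, edgeR adjusted p = 0.896). It is listed as proximal because its upstream edge lies 1130 bp from the start. The TSS-class ACS 743 bp inside held 16.5 and 13.63 CPM (0.28, SE 0.21, edgeR adjusted p = 0.494).

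The second catalytic subunit gene, *Ppp3cb*, had 1 Up call of 4 ACS. The ACS 2806 bp upstream of its start held 20.9, 14.9 and 16.2 CPM in adults and 15.1, 11.6 and 8.41 CPM at P10 (log2 fold change 0.57, SE 0.23, edgeR adjusted p = 0.133). The lowest adult and highest P10 values crossed, and the call was lost without Adult 4, P10 2 or P10 3. This ACS lies within the body of the neighbouring gene *Usp54*. The ACS over the *Ppp3cb* start held 20.2 and 20.3 CPM, a log2 fold change with a 95% interval from -0.39 to 0.38.

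*Ppp3r1*, which encodes the regulatory subunit B that both catalytic subunits require, had 0 calls of 5 ACS, beside 18.9% of all ACS called. The ACS over its start was the second most accessible of the calcineurin genes, at 67.8 and 64.7 CPM (log2 fold change 0.07, SE 0.15, edgeR adjusted p = 0.861).

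**Figure D2:**
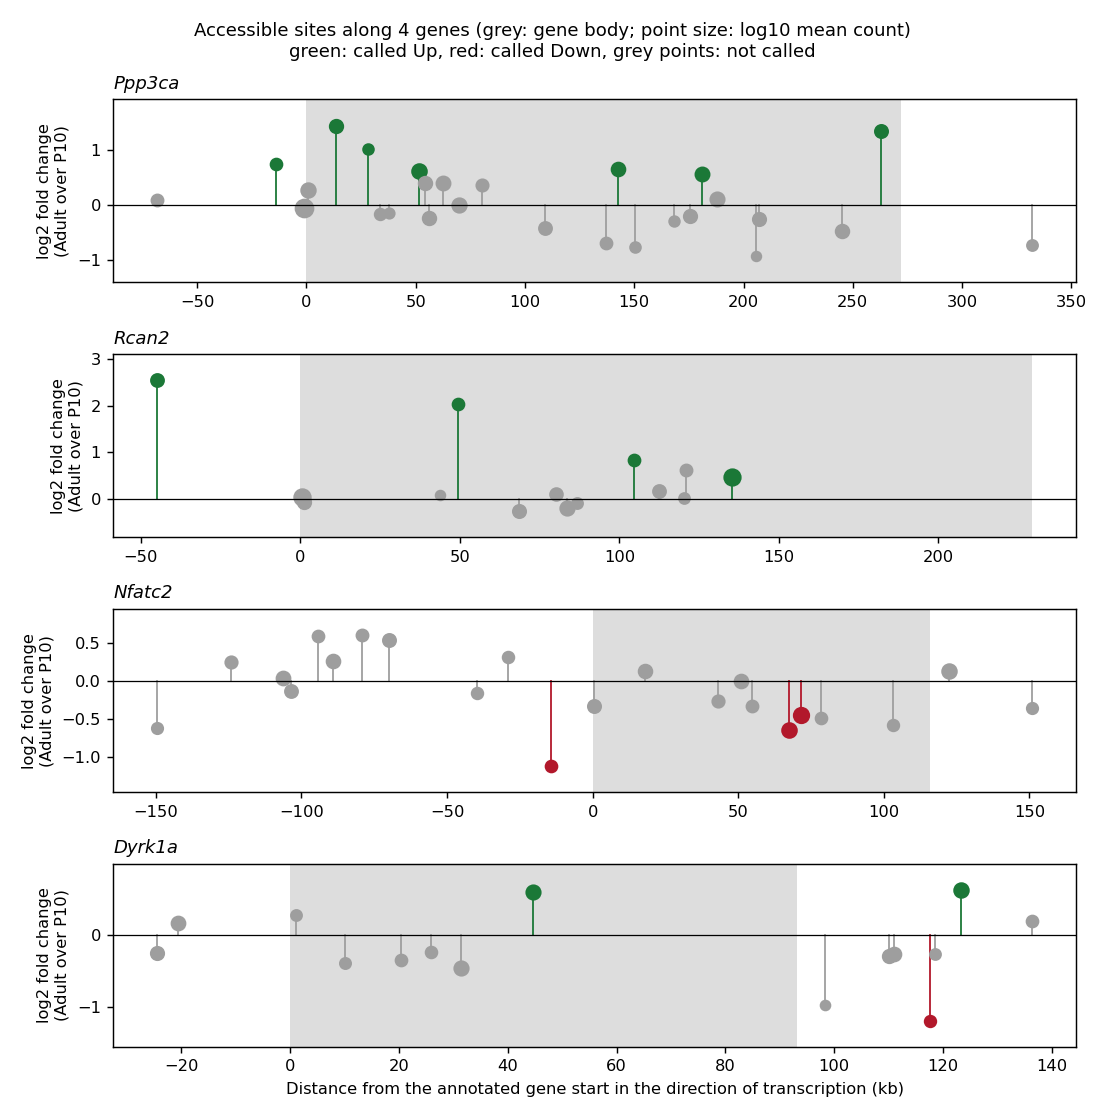
Log2 fold change of Adult over P10 on the vertical axis against distance from the annotated gene start in kb, in the direction of transcription, for the ACS of *Ppp3ca*, *Rcan2*, *Nfatc2* and *Dyrk1a*. The grey area is the gene body, point size follows the log10 mean count, and the Up calls of *Ppp3ca* are spread from 13976 bp upstream to 263125 bp inside, among ACS that were not called.

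The largest changes were at *Rcan2*, which encodes a calcineurin inhibitor first described as responsive to thyroid hormone. Of its 14 ACS, 4 were Up and 0 Down by edgeR, beside 12.3% and 6.63% of all ACS. The split was the same by DESeq2, by limma voom and with column sums, and 0 were lower at an unadjusted p under 0.05. Scaled to the sequenced reads, the split was 2 Up and 7 Down. Without Adult 6, P10 2 or P10 3, 2 Up were called. The ACS 44899 bp upstream of the start (chr9:18671505-18671734, Rn5) held 12.6, 11.4 and 15.1 CPM in adults and 2.09, 1.997 and 2.54 CPM at P10. The means were 13.01 ± 1.89 and 2.21 ± 0.29 CPM (SD, n = 3), a 5.84-fold difference (log2 fold change 2.55, SE 0.27, edgeR adjusted p = 5.17e-07). By p-value it had rank 57 among all ACS. The body of *Cyp39a1*, a bile acid and oxysterol hydroxylase gene, lies closer to it, at 10215 bp, so its assignment to *Rcan2* rests on the listed start alone.

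The next *Rcan2* ACS, 49357 bp inside the gene (chr9:18577249-18577482), held 8.13, 5.75 and 3.61 CPM in adults and 1.49, 1.498 and 1.27 CPM at P10. The adult libraries varied more among themselves, but the lowest stood above every P10 library. The means were 5.83 ± 2.26 and 1.42 ± 0.13 CPM, a 4.14-fold difference (log2 fold change 2.05, SE 0.34, edgeR adjusted p = 2.02e-04). These 2 ACS were the ones of the 99 that stayed Up under every scaling, the sequenced reads included, and without any library.

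The other *Rcan2* calls were an ACS 135335 bp inside and one 104433 bp inside. The first was the most accessible ACS of the gene in adults, though not at P10, and rose from 38.1 to 52.7 CPM (log2 fold change 0.47, SE 0.16, edgeR adjusted p = 0.0669). It was lost without Adult 6, P10 2 or P10 3. The second rose from 2.45 to 4.41 CPM (0.83, SE 0.33, edgeR adjusted p = 0.118) and was lost without Adult 4, Adult 6, P10 2 or P10 3. The ACS over the *Rcan2* start held 48.6 and 46.8 CPM (0.05, 95% interval -0.27 to 0.38).

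Summed over its ACS, *Rcan2* held 180.0, 153.9 and 178.7 CPM in adults and 143.4, 139.5 and 130.8 CPM at P10. The groups did not overlap, and the log2 ratio of the means, 170.8 ± 14.7 and 137.9 ± 6.48 CPM, was 0.31.

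For both RCAN genes together the share called was 23.5% of 17 ACS, beside 18.9% of all ACS. *Rcan1*, which lies on the rat counterpart of the Down syndrome region of human chromosome 21 together with *Dyrk1a*, had 0 calls of 3 ACS. The ACS over its listed start held 24.9, 20.4 and 23.2 CPM in adults and 22.2, 20.8 and 17.0 CPM at P10, with overlap (log2 fold change 0.19, SE 0.19, edgeR adjusted p = 0.641). The other ACS, 24463 and 36510 bp upstream, had log2 fold changes of -0.45 and -0.47, and *Rcan1* had 1 Down without P10 1. A stronger ACS 68823 bp upstream of the listed *Rcan1* start is assigned to *Clic6* (chr11:36224418-36225000, chosen after its values were seen). It held 43.6 ± 5.82 and 47.1 ± 2.24 CPM (log2 fold change -0.11, SE 0.16, edgeR adjusted p = 0.777). *Rcan1* spans 10.3 kb in the deposited annotation beside 79.9 kb in GRCr8, so upstream is as the deposited annotation has it. Whether this ACS lies at the start of the longer gene was not tested, as no coordinates were converted.

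*Dyrk1a* had 2 Up and 1 Down of 15 ACS, or 20% called beside 18.9% of all ACS, and no ACS of the TSS class. The gene spans 93.2 kb in the deposited annotation beside 118.2 kb in GRCr8, so its start and end are as the deposited annotation has them. The Down call was a weak ACS 24416 bp past the gene end (chr11:38574928-38575232), with 1.99, 0.877 and 1.16 CPM in adults and 3.86, 3.00 and 2.49 CPM at P10. All adult values were lower, with a log2 fold change of -1.19 (SE 0.39, edgeR adjusted p = 0.0516), and the call was kept whichever library was left out.

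The Up calls of *Dyrk1a* were stronger ACS with smaller changes. The ACS 44588 bp inside the gene held 19.6, 15.3 and 13.5 CPM in adults and 13.7, 8.42 and 9.62 CPM at P10, with a small overlap (log2 fold change 0.61, SE 0.23, edgeR adjusted p = 0.104). The ACS 30039 bp past the gene end held 20.3, 20.6 and 18.1 CPM in adults and 16.5, 9.63 and 11.7 CPM at P10, without overlap (0.63, SE 0.22, edgeR adjusted p = 0.0659), and *Kcnj6*, a potassium channel gene, lies closer to it, at 21457 bp. Both calls were lost without P10 2 or P10 3, and the inner one also without Adult 4. With column sums *Dyrk1a* had 2 Up and 2 Down, and scaled to the sequenced reads 0 Up and 11 Down.

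**Figure D3:**
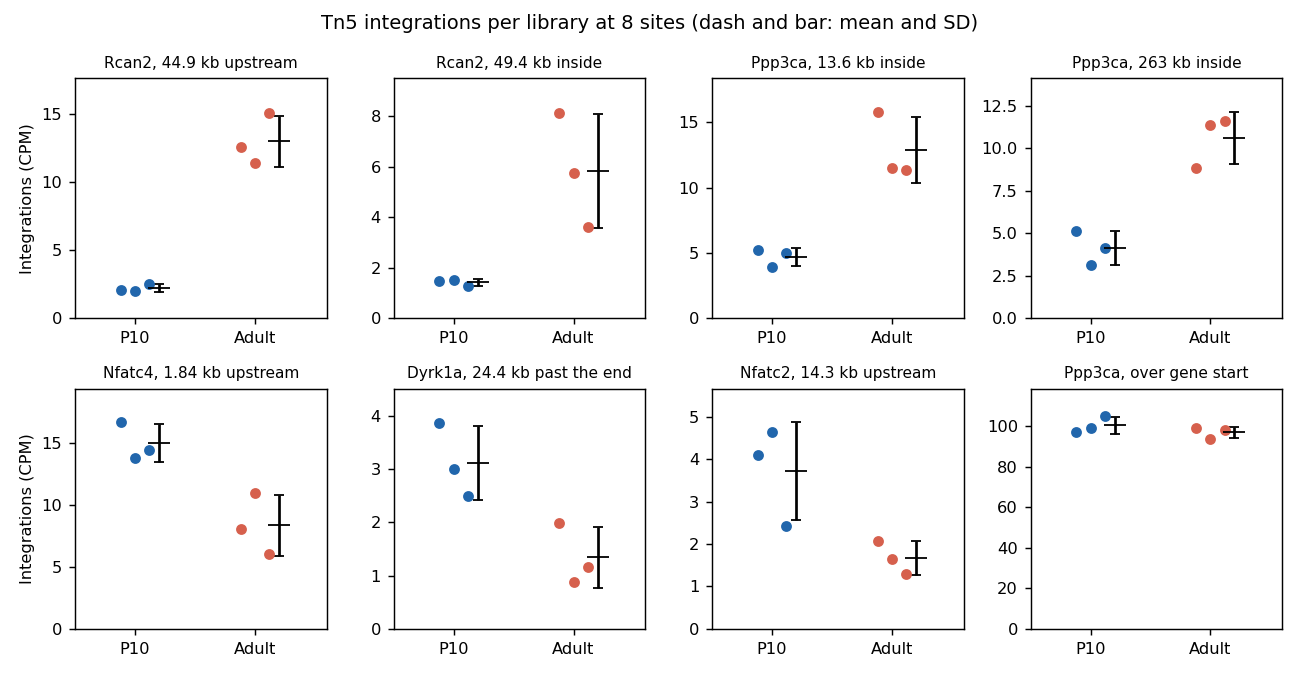
Tn5 integrations in CPM, per library, at 7 called ACS and at the ACS over the *Ppp3ca* start, with P10 in blue and Adult in red and a dash and bar for the mean and SD of 3 libraries. The ages are apart in the 7 called ACS, and meet near 100 CPM at the *Ppp3ca* start.

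Summed over all ACS of a gene, the ages overlapped for 6 of the 10 genes and not for 4, beside 22.3% of 13835 genes whose sums did not overlap. Adults were higher without overlap at *Nfatc3* (46.6 and 43.0 CPM), *Ppp3cb* (48.5 and 41.1 CPM) and *Rcan2*, and lower at *Nfatc4*. *Ppp3ca* was highest at both ages (291.5 CPM in adults, 262.1 CPM at P10) and *Nfat5* lowest (19.0 and 16.5 CPM). *Rcan2* and *Nfatc2* came next, *Nfatc2* at 138.8 and 151.8 CPM, followed by *Dyrk1a* (94.2 and 91.9 CPM) and *Ppp3r1* (90.5 and 87.4 CPM), and then by *Ppp3cb*, *Nfatc3*, *Nfatc4* and *Rcan1* (29.2 and 28.8 CPM). Within these pairs the libraries of *Dyrk1a* and *Ppp3r1* overlapped at both ages, those of *Ppp3cb* and *Nfatc3* likewise, those of *Rcan2* and *Nfatc2* too, and those of *Nfatc4* and *Rcan1* in adults. At P10, *Nfatc4* stood above *Rcan1* without overlap. The sum grows with the number of ACS, so it ranks how much listed open chromatin a gene has, not how open its promoter is.

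**Figure D4:**
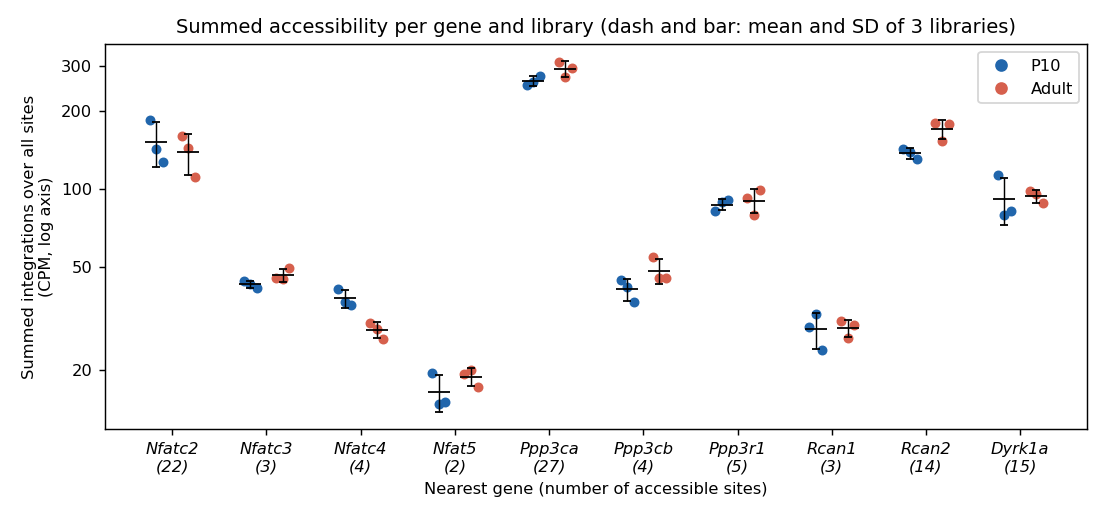
Summed CPM over the ACS of each gene (log axis) for each library, P10 in blue and Adult in red, with a dash and bar for mean and SD of 3 libraries. The adult values of *Nfatc4* lie below those at P10, and those of *Nfatc3*, *Ppp3cb* and *Rcan2* above.

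Of 99 ACS, 6 lie closer to the body of another listed gene than to that of the gene they were assigned to, and 3 of these were called. The 54 ACS inside gene bodies had 10 Up and 2 Down, or 22.2% called beside 22.7% of all ACS inside genes. The 27 upstream had 3 Up and 2 Down, or 18.5% beside 18.9%, the 12 downstream 1 Up and 2 Down, or 25.0% beside 18.7%, and the 6 over a gene start 0 of either beside 10.1%. The deposited table says only that an ACS is inside a gene, so exons and introns were not separated.

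Further genes of the pathway were read the same way, from a list of 36 of which 31 had ACS. Of their 292 ACS, 40 were Up and 13 Down, or 13.7 and 4.45%, beside the 12.3 and 6.63% of all ACS, with a median log2 fold change of -0.02. With column sums the Down count was 23. Other calcineurin partners, such as the scaffold *Akap5* and the inhibitor *Cabin1*, had 0 calls at 12 ACS by edgeR, DESeq2 and limma voom, and 0 at an unadjusted p under 0.05. Column sums and a mean count of at least 50 gave 2 Down each there, and the sequenced reads 10 Down. The NFAT kinases had 8 Up and 3 Down of 58 ACS, or 19.0% called beside 18.9% of all ACS, with 4 of the Up calls at *Dyrk2*.

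Genes of calcium entry and release had 23 Up and 5 Down of 175 ACS, or 13.1 and 2.86% beside 12.3 and 6.63% of all ACS. *Stim2*, a calcium sensor of the endoplasmic reticulum, had 10 Up and 1 Down of 64 ACS, calmodulin gene *Calm2* 4 Up of 25, and *Itpr2*, a calcium release channel, 3 Up of 18. The strongest *Stim2* ACS, 758757 bp beyond its start, rose from 4.12 ± 0.30 to 19.0 ± 2.60 CPM (log2 fold change 2.199, SE 0.23, edgeR adjusted p = 5.89e-07), and another 692537 bp beyond it from 3.02 to 13.7 CPM (2.16, SE 0.25, edgeR adjusted p = 2.49e-06). Both lie so far from *Stim2* that the assignment means nearest listed start and no more. An ACS 21977 bp inside *Itpr2* rose from 2.96 ± 2.15 to 13.01 ± 2.60 CPM (2.102, SE 0.33, edgeR adjusted p = 1.06e-04). An ACS inside *Cacna1c*, a voltage-gated calcium channel gene, fell from 6.30 to 3.10 CPM (-1.02, SE 0.29, edgeR adjusted p = 0.0248). It was the 1 Down call of that gene, which also had 2 Up of 22 ACS, with log2 fold changes up to 1.05.

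Partners of NFAT in transcription and scaffolding had 9 Up and 5 Down of 47 ACS, or 19.1 and 10.6% beside 12.3 and 6.63% of all ACS. *Homer1* had 3 Up of 7, and *Mef2a* 3 Up and 4 Down of 25. An ACS inside *Homer2* fell from 4.08 to 1.33 CPM (log2 fold change -1.59, SE 0.36, edgeR adjusted p = 0.00396), and one beyond *Mef2a* from 6.07 to 3.09 CPM (-0.97, SE 0.29, edgeR adjusted p = 0.0357). *Homer2* had 2 Up and 1 Down of 7 ACS, with log2 fold changes up to 0.80.

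Genes described as responding to calcineurin and NFAT in β-cells had 12 Up and 18 Down of 118 ACS, at 11 genes, or 10.2 and 15.3% beside the 12.3 and 6.63% of all ACS. With column sums 28 were Down. The β-cell marker list below shares 5 of these genes. *Slc2a2*, the glucose transporter GLUT2, had 6 Up and 0 Down of 21, and its strongest call, 155599 bp upstream, rose from 6.18 to 17.8 CPM (log2 fold change 1.51, SE 0.24, edgeR adjusted p = 1.24e-04). An ACS inside *Slc30a8*, the zinc transporter of insulin granules, rose from 24.2 to 55.3 CPM (1.19, SE 0.19, edgeR adjusted p = 1.29e-04), and one upstream of the cyclin gene *Ccnd2* from 11.0 to 23.5 CPM (1.09, SE 0.20, edgeR adjusted p = 5.71e-04). *Slc30a8* had 3 Up and 2 Down of 17 ACS, with log2 fold changes from -1.03 to 1.19. *Ccnd2* had 1 Up and 1 Down of 23, with values from -1.75 to 1.09. *Ins1* had 2 Up and 9 Down of 28, with its 3 leading Down ACS at log2 fold changes of -2.28, -1.15 and -0.96 (edgeR adjusted p = 0.00152, 0.00381 and 0.00233). In that order they lie 197687, 9213 and 216156 bp upstream, and the first held only 0.61 CPM in adults and 2.92 CPM at P10. For the far ones the assignment means nearest listed start and no more. The cyclin gene *Ccnd1* had 3 Down of 7.

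Markers of the cell types that islets hold were summed over all their ACS in each library. The β-cell list was found at 7 of 8 genes, *Ins1* and *Ins2* among them, with 981.5 to 1155 CPM in adults and 931.1 to 1232 CPM at P10. The δ-cell list, with 3 of 3 genes, held 158.7 to 198.4 and 177.6 to 191.9 CPM, the acinar list, with 7 of 8, 407.0 to 462.5 and 383.2 to 411.7 CPM, the immune list, with 5 of 7, 60.96 to 79.79 and 51.21 to 63.33 CPM, and the mesenchyme list, with 6 of 7, 411.2 to 472.4 and 401.8 to 414.0 CPM. These ranges over all ACS overlapped. Adults were higher without overlap for the α-cell list, with 4 of 4 genes at 582.5 to 684.9 and 486.7 to 574.4 CPM, for the duct list, read at 4 genes with 244.2 to 277.4 and 212.4 to 236.1 CPM, and for the endothelial list, with 7 of 7 at 511.2 to 604.7 and 463.4 to 484.9 CPM. At the TSS-class ACS alone the picture differed. Duct adults were lower there, with 17.53 to 20.16 against 24.73 to 34.45 CPM over 3 ACS, and δ-cell adults were lower too, with 20.33 to 25.42 against 30.35 to 38.73 CPM over 4 ACS, of which 3 were Down. The 1 immune ACS of this class was higher in adults, with 26.39 to 36.74 against 15.91 to 17.6 CPM, and the other lists overlapped. No ACS of these lists was at 0 in any library, and listed genes without an ACS included *G6pc2*, *Cel*, *Krt7*, *Cd68*, *Lyz2* and *Acta2*. The part of the α-cell, δ-cell, duct, endothelial and immune differences in the calls at *Rcan2*, *Ppp3ca* and the other genes was not tested.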

How the data were processed

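The authors deposited raw counts, the number of Tn5 integrations in each ACS, for the 6 libraries. For them, reads were checked with FastQC 0.11.2, aligned to Rn5 with BWA 0.7.13 and handled with SAMtools 1.3, reads of the mitochondrial genome or with poor mapping were dropped, ACS were called with MACS2 2.1.1 on the concatenated libraries of each age and joined, and integrations were counted with pyDNase. Treatment of PCR duplicates is not given in the sources used here, so errors cover counting and replicate spread alone. Columns of the authors' own test were not used.

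Repeated listings were counted once, which left 101603 of 101941 entries. Counts were scaled by TMM and tested with edgeR 4.0.16 (R 4.3.3) by the quasi-likelihood test, Adult against P10, with no filter and Benjamini-Hochberg adjustment over all ACS. Intervals are 95%. The test was checked on simulated counts. CPM use the TMM-scaled sums in ACS. Classes were set by distance to the start, at 1 and 10 kb.

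The genes, lists and tests were chosen with earlier results of these data known. ACS named one by one were, per gene, the TSS-class ACS with the highest mean count (or, without one, the ACS with the highest), every called ACS, and in each other list the 3 most significant ACS in each direction. The genes most like *Nfatc4* were those with the highest Pearson r of summed log2 CPM. Alternatives were column sums, RLE size factors or sequenced reads as library sizes, a usual expression filter (minimum count 10, total 15) or a mean count of at least 50, DESeq2 1.42.0, voom in limma 3.58.1, an FDR limit of 0.05, and fits without each library in turn. Promoters came from RefSeq (GRCr8), and no coordinates were converted. ACS sequences were not analysed here, and 1 marker gene is not reported here. Figures used matplotlib 3.10.9.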

Additional observations from a re-analysis of the deposited data

How the results depend on the processing

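No paired analysis was possible because the groups share no replicate numbers. Counts of the 10 genes stayed within 1.5 times of the reported ones with RLE size factors, the usual expression filter and DESeq2 (14 Up and 6 Down in each), with limma voom (14 and 5), and with a mean count of at least 50 (10 and 6 of 59 tested). With column sums they were 13 Up and 9 Down, the pathway list had 23 Down, the β-cell target list 28 Down, and all ACS 10732 Down. With sequenced reads as library sizes they were 2 Up and 67 Down with a median log2 fold change of -0.88, the pathway list had 4 Up and 180 Down, the target list 0 Up and 87 Down, and all ACS 1062 Up and 61663 Down. Sequenced reads do not remove the difference in the share of reads that fell in ACS. A mean count of at least 50 gave 21 Down in the pathway list. An FDR under 0.05 left 4 Up and 1 Down of the 10 genes, 20 and 3 of the pathway list, 6 and 9 of the target list, and 7177 and 1945 of all ACS.

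Leaving out 1 library gave 6 to 15 Up and 3 to 7 Down for the 10 genes, with a median log2 fold change from -0.09 to 0.00, 25 to 47 Up and 5 to 15 Down in the pathway list, 8 to 15 Up and 11 to 18 Down in the target list, and 7973 to 13232 Up and 3285 to 7215 Down of all ACS. With 2 libraries in a group the test had less to work with, and the cause of each lost call was not tested.

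Among the ACS named one by one, signs turned at ones that had not been called and lay near 0. Uncalled ACS farther from 0 turned as well in leave-one-out fits. Examples are the *Dyrk1a* ACS 20412 bp inside (-0.34, up to 0.19) and the *Nfatc2* ACS 29144 bp upstream (0.31, down to -0.09). With column sums the log2 fold changes were -0.084 at the strongest *Nfatc4* ACS, -0.062 at the *Nfat5* start, -0.029 at the *Ppp3r1* start and -0.043 at the *Rcan2* start. A mean count of at least 50 gave -0.077, -0.053, -0.024 and -0.037 there, and RLE and DESeq2 -0.0003 and -0.0008 at the *Nfatc4* ACS. Over the leave-one-out fits the *Nfatc4* ACS ran from -0.076 to 0.12, the *Nfat5* start from -0.078 to 0.073, the *Ppp3cb* start from -0.10 to 0.068, the *Ppp3r1* start from -0.0011 to 0.12 and the *Rcan2* start from -0.022 to 0.14. Scaled to sequenced reads, called ACS turned as well. The values were then -0.26 and -0.24 at the *Dyrk1a* ACS 44588 bp inside and past the end, -0.053, -0.22, -0.17 and -0.26 at the *Ppp3ca* ACS 13976 bp upstream and 51338, 142457 and 181104 bp inside, -0.31 at the *Ppp3cb* ACS 2806 bp upstream, and -0.39 and -0.036 at the *Rcan2* ACS 135335 and 104433 bp inside. At starts and the strongest *Nfatc4* ACS they were -0.69 at *Nfatc3*, -0.84 at *Nfatc4*, -0.81 at *Nfat5*, -0.55 at the *Ppp3ca* ACS 743 bp inside, -0.76 at *Ppp3r1*, -0.67 at *Rcan1* and -0.79 at *Rcan2*. Weak ACS near 1 CPM had SEs of 0.4 to 0.5 on the log2 scale, and the part of depth in them was not tested.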
